A study of Homo sapiens with 9 samples.

Results

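Heme is the iron-containing ring that haemoglobin, cytochromes and many enzymes carry. Its synthesis starts in the mitochondrion, where 5-aminolevulinate synthase joins glycine and succinyl-CoA, continues through cytosolic steps and returns to the mitochondrion, where ferrochelatase inserts the iron. The first step is the rate-limiting one and has a pair of isozymes: ALAS1 is made in nearly all cells and is held down by heme itself, whereas ALAS2 is made in developing red cells under erythroid transcription factors, and its translation depends on iron. The genes described here are 8 enzymes of the pathway, chosen by name and taken in pathway order: ALAS1, ALAS2, ALAD, UROS, UROD, CPOX, PPOX and FECH. All 8 were found, by Ensembl identifier, among the 57338 genes of the table, and gene coordinates are those of GENCODE 29. The step between ALAD and UROS is not described.

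According to the study, the RNA came from HEK293T, a human embryonic kidney line that carries the SV40 large T antigen. The cells received a pEGFP plasmid without insert (empty vector), human PRM1 fused to EGFP (hPRM1) or human PRM2 fused to EGFP (hPRM2), and those with high EGFP were sorted 3 days later. Protamines are the small arginine-rich proteins that replace histones in sperm. Expression was transient, and the study describes the same transfection and sorting for every group. Each group had 3 libraries of mRNA 3′ ends, whose origin in separate cultures is not stated in the labels. The p-values therefore measure only the spread between these samples. Values are RPKM, reads scaled to the length of the gene and to the total reads of the library. A 3′ library gives about 1 tag per transcript whatever its length, so the division by length lowers long genes, and levels of different genes are compared here on the RPKM scale only.

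The libraries labelled hPRM1 stood apart before any enzyme was considered. PRM1 was listed at 0 in all 9 libraries, so the label of the hPRM1 group was not borne out by its own transgene. The reason was not tested. PRM2 was at 71224, 60050 and 36130 RPKM in the hPRM2 libraries and at 0 in the other 6. Of 7 genes typical of HEK293T, 5 (LIN28B, IGF2BP1, NEFM, NEFL and PAX2) were at 0 in all 3 libraries labelled hPRM1. Their summed level was 0.306 to 0.614 RPKM there, against 143 to 224 with empty vector and 88.4 to 153 with hPRM2. Globin genes and AHSP, the chaperone of alpha-globin, summed to 3.09 to 18.0 RPKM in the empty vector, 0 to 7.26 in hPRM2 and 2060890 to 2266970 in the libraries labelled hPRM1. Of the 10 other erythroid markers, 8 reached 1 RPKM in all 3 of those libraries, against 2 in all 3 of the empty vector and 2 in all 3 of hPRM2, with sums of 331 to 449 RPKM against 15.4 to 29.9 in the empty vector. All 7 leukocyte markers reached 1 RPKM in all 3 libraries labelled hPRM1, and none did in all 3 of another group, with sums of 5154 to 6019 RPKM against 0.284 to 2.27 in the empty vector. Hepatocyte markers, from the other tissue of high heme synthesis, stayed at or below 5.80 RPKM in sum in every library. The libraries labelled hPRM1 also have library numbers from a different run of numbers, so batch and condition cannot be told apart. In bulk RNA, fewer cells of a type and less RNA per cell cannot be told apart either. The part of these markers in the results below was not tested. The number of reads on genes was estimated from the smallest steps between values. It was 7930000 to 10790000 in the empty vector, 4210000 to 5860000 in the libraries labelled hPRM1 and 1270000 to 2650000 in hPRM2. Counting error follows the reads of each gene, which differed in another way. With the longest transcript as length, UROD had 98.3 to 128 reads in the libraries labelled hPRM1 and 185 to 720 in hPRM2. FECH had 161 to 273 reads in the former and 0 to 19 in the latter.

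ALAS1, the housekeeping isozyme (ENSG00000023330, GRCh38 chr3:52198086-52214327, plus strand), was at 23.0, 23.4 and 15.3 RPKM in the empty vector. Its level was 4.78, 2.18 and 3.51 RPKM in the libraries labelled hPRM1, and 1.73, 7.21 and 13.4 RPKM in hPRM2. Neither the libraries labelled hPRM1 nor those of hPRM2 overlapped the empty vector, and the hPRM2 libraries spread widely, with the highest close to the lowest control. ALAS2, the erythroid isozyme (ENSG00000158578, GRCh38 chrX:55009055-55031064, minus strand), was listed at 0 in all 3 empty vector and all 3 hPRM2 libraries. In the libraries labelled hPRM1 it was at 205, 68.5 and 297 RPKM, the highest of the 8 enzymes in each of them. By expressed rank, ALAS2 stood at places 258, 844 and 181 of the 15116 to 15655 genes above 0 in these libraries.

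**Figure D1:**
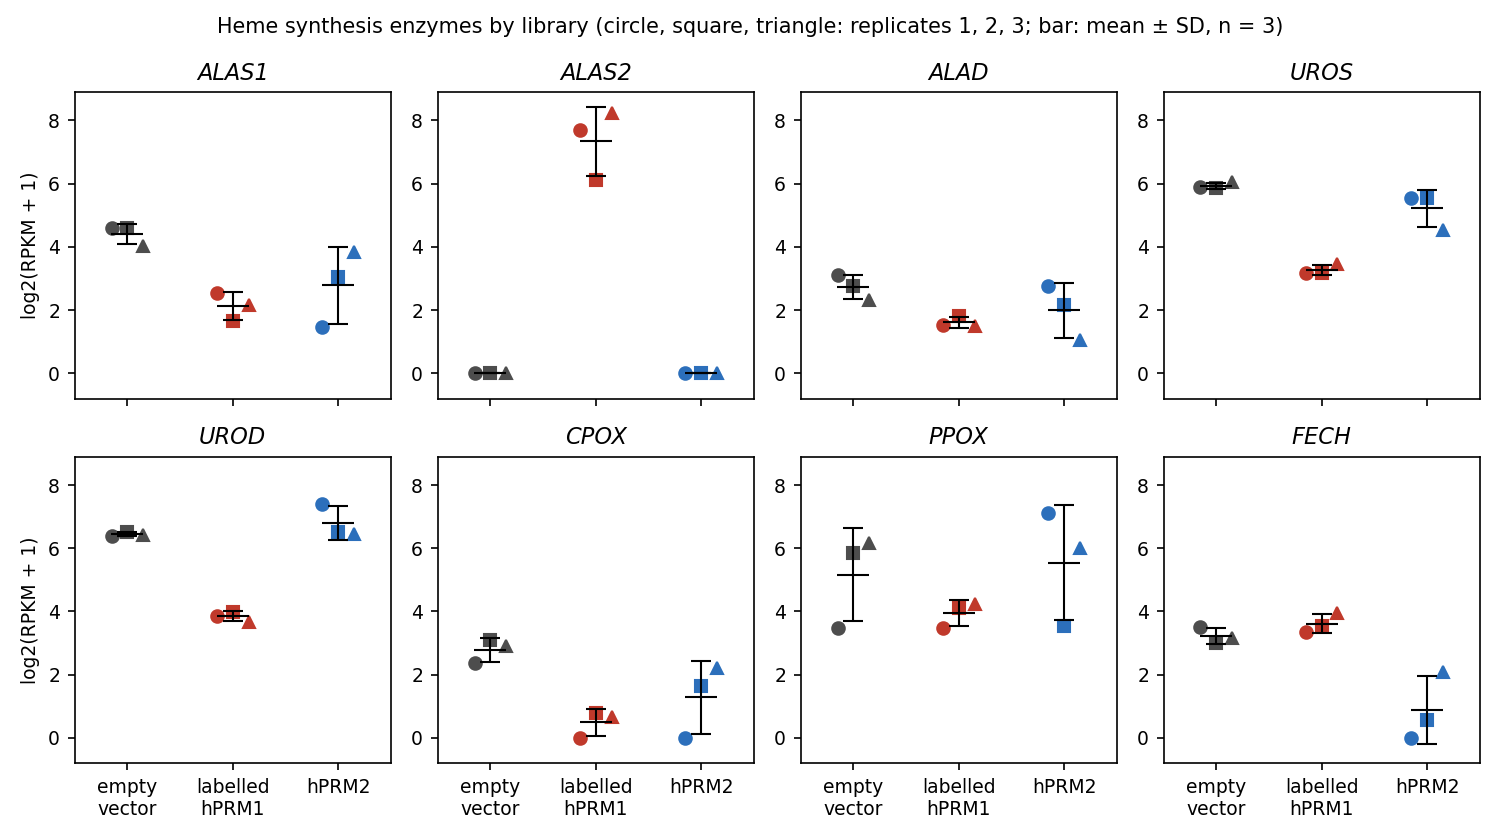
Level of each of the 8 enzymes in every library, on the log2(RPKM + 1) scale of the vertical axis, for empty vector (grey), libraries labelled hPRM1 (red) and hPRM2 (blue). Symbols are replicates 1 (circle), 2 (square) and 3 (triangle), and bars are the mean ± SD of 3 libraries. ALAS2 is above 0 only in the 3 red libraries, FECH is at a similar height in grey and red, and the other enzymes except PPOX are lower in red than in grey without overlap.

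Since RPKM values hold no counts, differences were tested with limma on log2(RPKM + 1), over all genes that reached 1 RPKM in 3 or more of the 6 libraries compared. A gene was called when its adjusted p-value was at most 0.05 and its change at least 2-fold. On this scale a fold change comes out too small for a gene with few reads. ALAS1 fell by 2.28 (log2, SE 0.30, limma adjusted p = 0.00044) in the libraries labelled hPRM1 against the empty vector. ALAS2 rose by 7.34 (log2, SE 0.52, limma adjusted p = 2.77e-05). It entered the test only through the libraries in which it is present, so it had to differ. No fold on the linear scale is given for it, since the deposited values hold no counts and ALAS2 is listed at 0 in the other groups. In hPRM2 against the empty vector, ALAS1 differed by -1.63 (log2, SE 0.71), which was not called (limma adjusted p = 0.207), and ALAS2 could not be tested.

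Both isozymes were set against each other within each library, as log2 of (ALAS2 + 1)/(ALAS1 + 1), where the scaling of the library matters only through the added 1. The ratio was -4.59, -4.61 and -4.02 with empty vector, 5.15, 4.45 and 6.05 in libraries labelled hPRM1, and -1.45, -3.04 and -3.85 in hPRM2. It thus changed sign in all 3 libraries labelled hPRM1 and in none of the hPRM2 libraries. Group means were -4.41 ± 0.33 (SD, n = 3), 5.22 ± 0.80 and -2.78 ± 1.22. The difference between libraries labelled hPRM1 and the empty vector was 9.62, and that between libraries labelled hPRM1 and hPRM2 was 7.995. Each had a two-sided exact permutation p of 0.1, the smallest that 3 against 3 libraries allow. Because ALAS2 is listed at 0 in the other groups, the ratio there cannot exceed 0, and this p adds no support to the levels above. The difference of 1.63 between hPRM2 and the empty vector (exact permutation p = 0.1) is that of ALAS1 alone, because ALAS2 is at 0 in both groups. Of the summed RPKM of both isozymes, ALAS2 made up 97.7, 96.9 and 98.8% in the libraries labelled hPRM1.

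**Figure D2:**
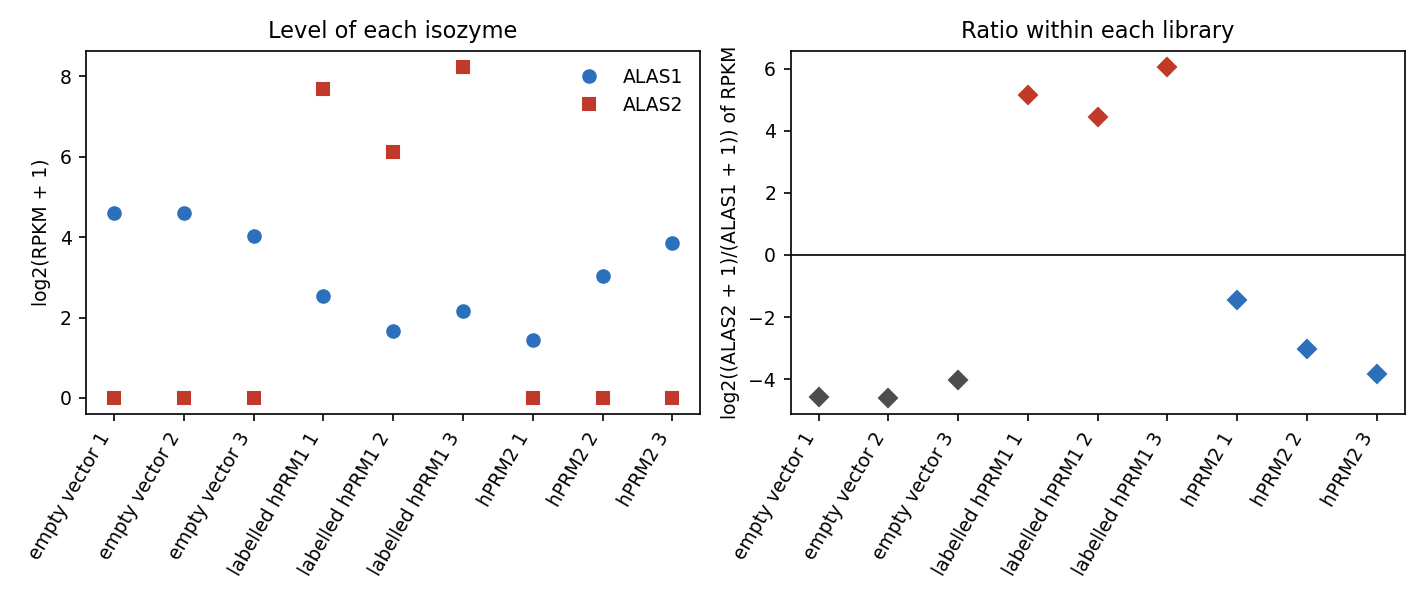
Left, log2(RPKM + 1) of ALAS1 (blue circles) and ALAS2 (red squares) in each of the 9 libraries named on the horizontal axis. Right, log2((ALAS2 + 1)/(ALAS1 + 1)) per library in grey for empty vector, red for libraries labelled hPRM1 and blue for hPRM2, with a line at equal levels: the 3 red points lie between 4.45 and 6.05, and the other 6 between -4.61 and -1.45.

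The 3 libraries labelled hPRM1 did not carry ALAS2 to the same degree. Replicate 2 held 0.273 times the mean of replicates 1 and 3. In the same library, SLC4A1, the anion exchanger of the red cell membrane, was at 0.533 times the mean of the other two, CA1, a red cell carbonic anhydrase, at 0.362 times, AHSP at 0.619 times and HBA1 at 0.715 times. Other markers were not low there: TAL1 was at 1.95 times, KLF1 at 1.10, GATA1 at 1.05, SELENBP1 at 1.02, HBM at 0.969 and HBB at 0.963 times the mean of the other two. HBA1 and HBA2 are near-identical, so the division of reads between them is uncertain. GATA1, the master regulator of erythroid genes, was at 6.25, 5.19 and 3.64 RPKM and KLF1 at 4.51, 6.28 and 6.89 RPKM in replicates 1 to 3, and both were at 0 in the other 6 libraries. Replicate 2 was the lowest library for 3 of 5 haemoglobin genes and 3 of 8 other erythroid markers above 0 in all 3 libraries, and the highest library for 0 and 2 of them and for 5 of 7 leukocyte markers. ALAS1 was also lowest in replicate 2, at 0.526 times the mean of the others. Of the remaining enzymes, none had its lowest value in that library.

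The regulatory sequence of the isozymes is shown because only one of them is expected from background knowledge to be under erythroid and iron control. RefSeq (GRCh38.p14) windows from 250 bases before to 50 bases after the annotated start were available for 7 of the 8 genes. The 250 bases before the start of ALAS2, chrX:55030978-55031227 on the minus strand, are printed 5′ to 3′ with matches to GATAA, the core of the motif of GATA factors, in capitals (TTATC where the match is on the other strand).

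ALAS2 upstream: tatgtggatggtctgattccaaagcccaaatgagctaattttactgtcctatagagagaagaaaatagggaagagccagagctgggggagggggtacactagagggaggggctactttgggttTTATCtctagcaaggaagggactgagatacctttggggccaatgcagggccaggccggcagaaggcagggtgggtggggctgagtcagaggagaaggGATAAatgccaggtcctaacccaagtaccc

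The matches begin 127 and 30 bases before the start. GATAA occurs on either strand in 22.7% of the 35116 RefSeq windows of this length, and also in the windows of CPOX (207 and 125 bases before the start) and of PPOX (63 bases before its second start), but not in those of ALAS1, ALAD, UROD or FECH. In the first exon of ALAS2 lies the iron-responsive element, the hairpin through which iron controls translation of the mRNA. It was found by a search for the CAGTGN loop on a paired stem, which matched in 8 of the 35116 windows (0.023%). The element is in the 5′ untranslated part at chrX:55030942-55030966, minus strand, and the letters of the loop are in capitals.

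ALAS2 iron-responsive element: gttcgtcctCAGTGCagggcaacag

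ALAS1 has instead a pair of matches to the motif of NRF1 (GCGC, any base, then TGCGC, searched on both strands), a general activator of genes for mitochondrial proteins. They begin 9 bases before and 22 bases after the start, and are shown in capitals in chr3:52198064-52198093 and chr3:52198094-52198123, plus strand. This motif occurs in 5.78% of all windows and in none of the other 6 genes. A match describes the letters only.

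ALAS1 first match: gctacgcggcGCGCCTGCGCagaagaaggc
ALAS1 second match: agcgcccaagGCGCATGCGCagcggtcact

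The cytosolic enzymes follow. ALAD, which condenses aminolevulinate to porphobilinogen (ENSG00000148218, chr9:113386317-113401333, minus strand), was at 7.55, 5.80 and 3.997 RPKM with empty vector, 1.87, 2.52 and 1.83 RPKM in libraries labelled hPRM1 and 5.80, 3.49 and 1.06 RPKM in hPRM2. The libraries labelled hPRM1 lay below the empty vector, whereas the hPRM2 libraries overlapped both. UROS, which closes the ring to uroporphyrinogen III (ENSG00000188690, chr10:125784980-125823285, minus strand), was at 58.8, 56.7 and 64.8 RPKM with empty vector, 8.08, 8.10 and 9.94 RPKM in libraries labelled hPRM1 and 45.8, 46.1 and 22.3 RPKM in hPRM2. All 3 groups were apart from each other for UROS. UROD, which decarboxylates uroporphyrinogen (ENSG00000126088, chr1:45012147-45015575, plus strand), was the enzyme of highest RPKM with empty vector, at 83.3, 91.4 and 85.1. This order holds for RPKM only: with the longest transcript as length, UROD had 1056 to 1467 reads there and UROS 1490 to 2235. UROD was at 13.6, 14.9 and 11.8 RPKM in the libraries labelled hPRM1 and at 170, 90.7 and 85.8 RPKM in hPRM2. Only the former group was apart from the controls. In the libraries labelled hPRM1 against the empty vector all 3 cytosolic enzymes were called lower on the deposited scale: ALAD fell by 1.12 (log2, SE 0.27, limma adjusted p = 0.0073), UROS by 2.66 (SE 0.19, limma adjusted p = 2.49e-05) and UROD by 2.61 (SE 0.18, limma adjusted p = 2.32e-05). The call of ALAD was lost without replicate 1 of the empty vector, where its change was -0.93 (limma adjusted p = 0.0216).

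The last 3 enzymes act in the mitochondrion. CPOX, coproporphyrinogen oxidase (ENSG00000080819, chr3:98579446-98593723, minus strand), was at 4.12, 7.50 and 6.46 RPKM with empty vector, 0, 0.739 and 0.595 RPKM in libraries labelled hPRM1 and 0, 2.14 and 3.63 RPKM in hPRM2. The libraries labelled hPRM1 and those of hPRM2 lay below the controls, on few reads: with the longest annotated transcript as the gene length, the values above 0 correspond to 8 and 8 reads in the libraries labelled hPRM1 and 7 and 15 reads in hPRM2. CPOX overlaps the gene model AC021660.3 on the same strand over 6053 bases, so some of its reads may have been assigned elsewhere. PPOX, protoporphyrinogen oxidase (ENSG00000143224, chr1:161166410-161178013, plus strand), was at 10.1, 56.1 and 71.6 RPKM with empty vector, 10.1, 16.2 and 18.0 RPKM in libraries labelled hPRM1 and 137, 10.6 and 63.0 RPKM in hPRM2. All 3 groups overlapped. PPOX overlaps B4GALT3 on the other strand over 6659 bases, the use of strand in counting is not given in the sources used here, and reads of both genes may be mixed. FECH, ferrochelatase (ENSG00000066926, chr18:57548283-57586772, minus strand), was at 10.4, 7.04 and 7.95 RPKM with empty vector, 9.22, 10.6 and 14.5 RPKM in libraries labelled hPRM1 and 0, 0.484 and 3.28 RPKM in hPRM2. The first and second of these groups overlapped, and the hPRM2 libraries lay below both.

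Of these, CPOX fell by 2.29 (log2, SE 0.32, limma adjusted p = 0.000588) in the libraries labelled hPRM1 against the empty vector. It entered this test through the empty vector libraries alone, so it too had to differ. PPOX differed by -1.22 (SE 0.71, 95% interval -2.93 to 0.49, limma adjusted p = 0.155) and FECH by 0.39 (SE 0.25, 95% interval -0.22 to 0.999, limma adjusted p = 0.196), and neither was called. PPOX was decided by 1 library: without replicate 1 of the empty vector it was called lower, at -2.07 (limma adjusted p = 0.00202). In all, 1 of the 8 enzymes was called higher and 5 lower, beside 12.9% of the 13588 genes tested called higher and 62.5% called lower. The groups lay apart for 1 enzyme upward and 5 downward, beside 14.5% and 66.4% of all genes tested. The median change of the 8 enzymes was -1.75, beside -1.72 for all genes tested. The number of members called lower is therefore near the background of a comparison in which most genes were called lower.

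**Figure D3:**
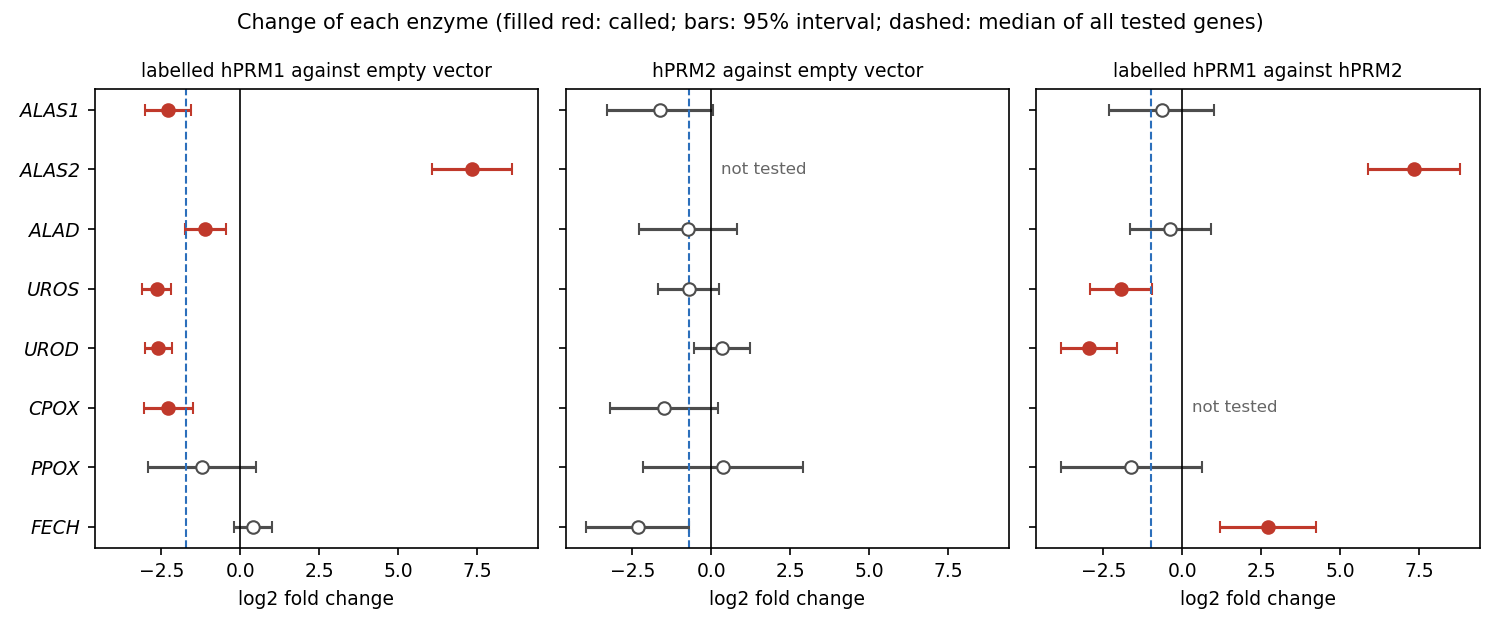
Log2 fold change (horizontal axis) of each enzyme in the 3 comparisons, with 95% intervals from limma; filled red points are called, open points are not, and the dashed blue line is the median of all genes tested. In the left panel ALAS1, UROS, UROD and CPOX lie below the dashed line at -1.72, ALAD and PPOX above it at -1.12 and -1.22, FECH at 0.39 and ALAS2 at 7.34; in the middle panel no enzyme is called; in the right panel ALAS2 and FECH are called higher, and UROS and UROD lower.

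Because the median gene moved, each enzyme was also read relative to it. ALAS2 stood 9.06 (log2) and FECH 2.11 above the median change, ALAD 0.60 and PPOX 0.49 above it, ALAS1 and CPOX 0.57 below it, UROD 0.89 and UROS 0.94 below it. The same shift appeared when libraries were rescaled. The median change of all genes was 0.14 with median-of-ratios scaling and -0.30 with quantile normalization, in place of -1.72 on the deposited scale, and the genes called in the libraries labelled hPRM1 against the empty vector went from 1750 higher and 8491 lower to 4434 and 3412, and to 3475 and 4388. Under both, ALAS2 and FECH were called higher and no enzyme was called lower. FECH rose by 2.66 (limma adjusted p = 0.000198) with median-of-ratios scaling and by 2.001 (limma adjusted p = 0.000656) with quantile normalization. ALAD turned to 0.83 and 0.38, and PPOX to 1.16 and 0.45. The calls of ALAS1, ALAD, UROS, UROD and CPOX as lower thus hold for the deposited scale. ALAS2 was called higher on all 3 scales, which its 0 in the empty vector libraries makes no sign of stability.

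**Figure D4:**
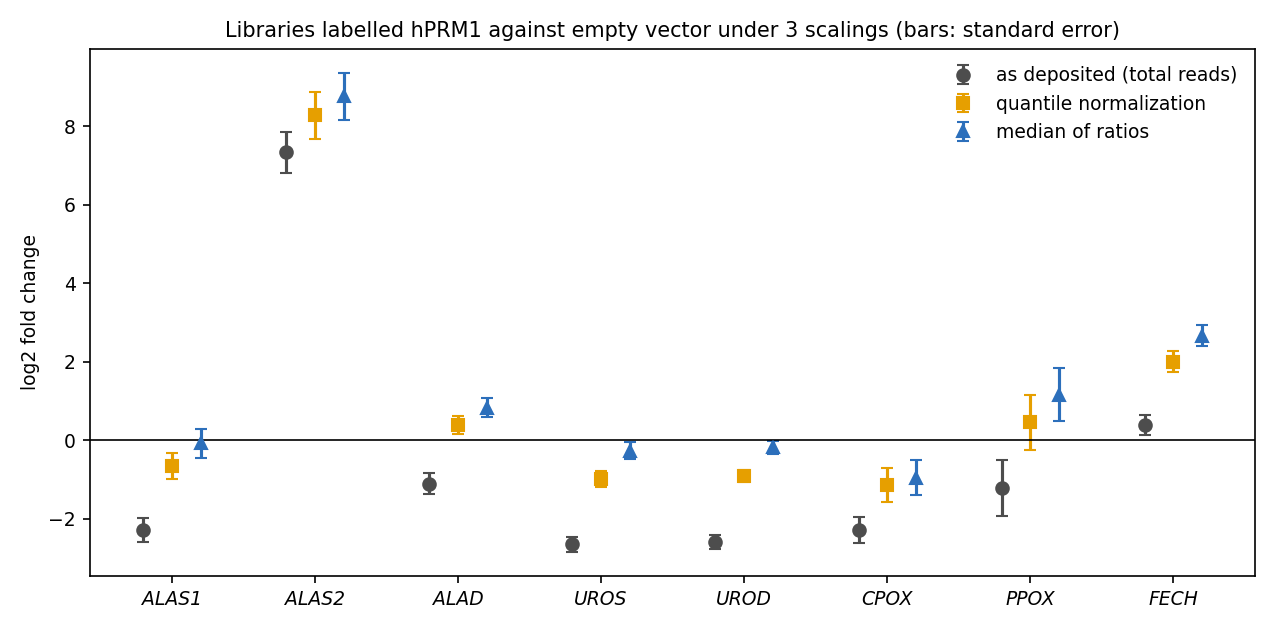
Log2 fold change (vertical axis, ± SE) of the 8 enzymes in the libraries labelled hPRM1 against the empty vector on the deposited scale (grey circles), after quantile normalization (orange squares) and after median-of-ratios scaling (blue triangles). Every enzyme moves upward with rescaling: ALAS2 is far above 0 throughout, FECH goes from 0.39 to 2.001 and 2.66, and ALAD and PPOX cross 0.

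In hPRM2 against the empty vector, 7 enzymes were tested and 0 were called by limma, beside 1.36% of the 13126 genes tested called higher and 1.37% called lower. A test of each gene by itself, after the study's methods, gave the same count, and 1 enzyme, FECH, had an unadjusted limma p under 0.05. FECH differed by -2.34 (log2, SE 0.70, unadjusted p = 0.0119, limma adjusted p = 0.109) and was called lower only when all 9 libraries shared 1 estimate of the spread (limma adjusted p = 0.0258). With the longest transcript as length, its hPRM2 values correspond to 0, 2.2 and 19 reads. The remaining changes were -1.49 for CPOX (limma adjusted p = 0.243), -0.73 for ALAD, -0.71 for UROS, 0.34 for UROD and 0.38 for PPOX. ALAS1, UROS, CPOX and FECH lay below the empty vector in all hPRM2 libraries, 4 of 7 enzymes, beside 29.9% of all genes tested, and 0 lay above it, beside 6.01%. The median change of the 7 enzymes was -0.73, beside -0.72 for all genes. The intervals were wide: that of UROD ran from -0.53 to 1.21 and that of PPOX from -2.16 to 2.92. Changes of 2-fold could therefore not be detected for every enzyme with this spread between libraries.

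Set directly against hPRM2, with 7 enzymes tested, the libraries labelled hPRM1 had 2 enzymes called higher and 2 lower, beside 16.0% and 37.0% of the 11756 genes tested. ALAS2, which entered this test too only through the libraries labelled hPRM1 and so had to differ, was higher by 7.34 (log2, SE 0.59, limma adjusted p = 0.000267), and FECH by 2.73 (SE 0.62, limma adjusted p = 0.0112). UROS fell by 1.94 (SE 0.40, limma adjusted p = 0.00739) and UROD fell by 2.95 (SE 0.37, limma adjusted p = 0.00107). ALAS2 and FECH were also the enzymes whose groups lay apart and higher, and UROS and UROD those apart and lower, beside 19.0% and 43.1% of all genes tested. The call of UROS was lost under both rescalings, at -0.11 and -0.65, and FECH lost its call without replicate 3 of the libraries labelled hPRM1 (limma adjusted p = 0.0525). ALAS1, at -0.65, ALAD, at -0.38, and PPOX, at -1.61, were not called. ALAS1 was called lower, at -1.32 (limma adjusted p = 0.0361), without replicate 1 of hPRM2, and PPOX, at -2.61 (limma adjusted p = 0.00943), without replicate 2 of hPRM2. CPOX did not pass the filter on low values here, and FECH reached 1 RPKM in only 1 of the 3 hPRM2 libraries.

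Within a library, ratios between enzymes do not depend on its scaling. FECH was at 0.124, 0.0770 and 0.0934 times UROD in the empty vector, 0.677, 0.711 and 1.23 times UROD in the libraries labelled hPRM1 and 0, 0.00533 and 0.0382 times UROD in hPRM2. The 3 groups did not overlap in this ratio. The pair was not set in advance, and how often other pairs separate was not counted. In the libraries labelled hPRM1 against the empty vector, FECH stood 2.11 (log2) above the median change and UROD 0.89 below it. The hPRM2 ratios rest on few reads of FECH, 0, 2.2 and 19 with the longest transcript as length. ALAS1 was at 0.237 ± 0.051 times UROD (SD, n = 3) with empty vector and 0.265 ± 0.11 times in libraries labelled hPRM1, a difference within the spread, and at 0.082 ± 0.073 times in hPRM2.

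The order of levels in RPKM changed with the group. In the empty vector UROD (mean 86.6 RPKM) stood first and apart from UROS (60.1), which overlapped PPOX (45.9), and PPOX overlapped ALAS1 (20.6). FECH (8.45), CPOX (6.03) and ALAD (5.78) followed and overlapped in turn, with ALAS2 last. In the libraries labelled hPRM1, ALAS2 (190) stood first and apart, PPOX (14.8), UROD (13.4), FECH (11.5) and UROS (8.71) overlapped each with the next, and ALAS1 (3.49) and ALAD (2.07) overlapped below them, with CPOX (0.445) last. In hPRM2, UROD (115) overlapped PPOX (70.2), which overlapped UROS (38.1). Below and apart from UROS came ALAS1 (7.45), ALAD (3.45), CPOX (1.92) and FECH (1.25), each overlapping the next. FECH therefore held place 5 in the empty vector, place 4 in the libraries labelled hPRM1 and place 7 in hPRM2. These places depend on the division by length. With the longest transcript as length, FECH had 161 to 273 reads in the libraries labelled hPRM1. In each of them that was more than PPOX (131 to 209), UROD (98.3 to 128) and UROS (109 to 166) had. Without ALAS2, the other 7 enzymes summed to 197 to 255 RPKM in the empty vector, 47.6 to 60.1 in the libraries labelled hPRM1 and 161 to 360 in hPRM2. ALAS2 made up 81.1, 55.3 and 83.2% of the sum over all 8 enzymes in the libraries labelled hPRM1, and UROD, with 33.4 to 42.2%, was the largest share in each empty vector library.

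**Figure D5:**
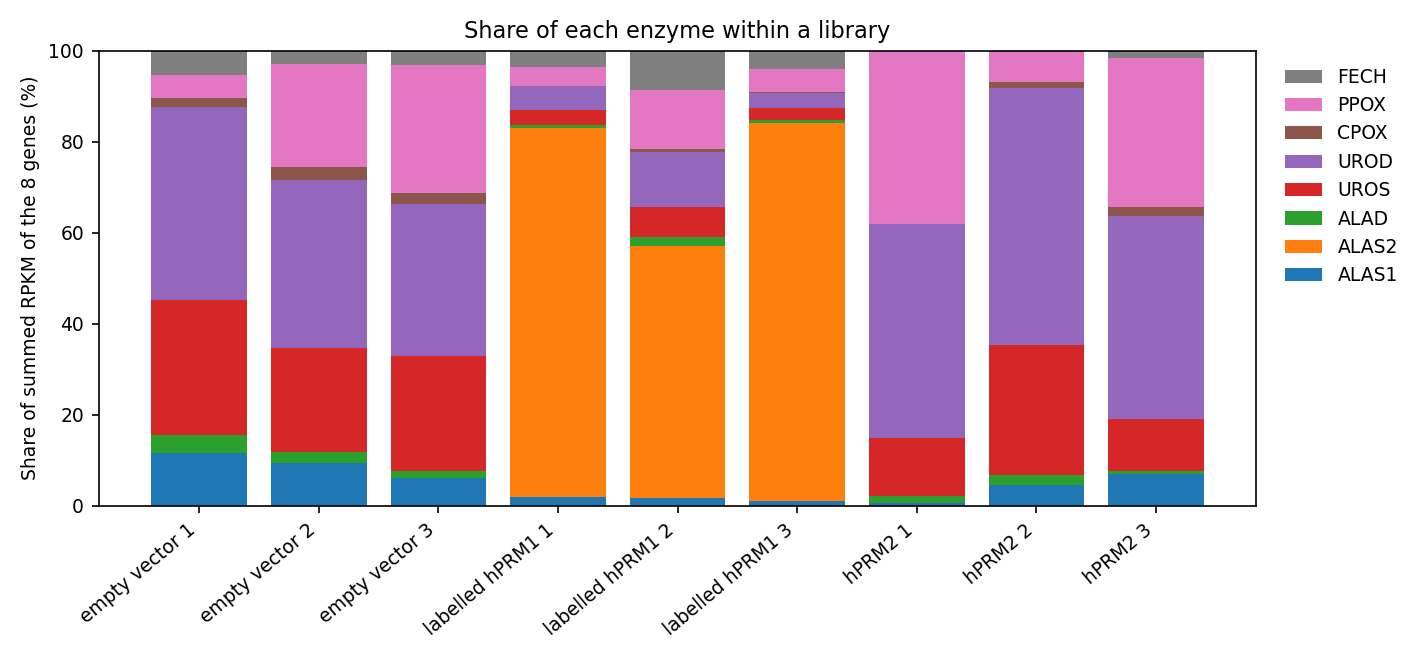
Share of each enzyme in the summed RPKM of the 8 genes (vertical axis, %), stacked in pathway order from the bottom, for each of the 9 libraries. The orange ALAS2 segment takes 81.1, 55.3 and 83.2% in the 3 libraries labelled hPRM1 and is missing from the other 6, in which UROD (purple) takes 33.4 to 56.4%.

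Outside the 8 enzymes, 28 other genes of heme biology were read from the same fits: regulators, mitochondrial carriers, genes of heme breakdown and use, and genes of iron-sulfur cluster assembly. In the libraries labelled hPRM1 against the empty vector, 24 passed the filter on low values, of which 2 were called higher and 15 lower on the deposited scale, 10 higher and 4 lower with median-of-ratios scaling, and 7 higher and 6 lower with quantile normalization. On the deposited scale the shares of all genes tested were 12.9% called higher and 62.5% called lower. The median change of the 24 was -1.38 on that scale, beside -1.72 for all genes. Of the 13588 genes tested, 4434 were called higher and 3412 lower with median-of-ratios scaling, and 3475 and 4388 with quantile normalization. SLC25A37, the mitoferrin that brings iron into the mitochondrion of developing red cells, was at 17.3, 13.0 and 25.2 RPKM in the empty vector, at 2663, 2556 and 2039 RPKM in the libraries labelled hPRM1 and at 70.8, 7.44 and 10.3 RPKM in hPRM2. It rose by 6.99 (log2, SE 0.26, limma adjusted p = 3.75e-06) against the empty vector. FAM210B, an inner membrane protein linked to the supply of iron to ferrochelatase, went from 29.8, 35.3 and 38.0 RPKM to 299, 269 and 222 RPKM, a rise of 2.90 (SE 0.19, limma adjusted p = 2.02e-05). SLC25A38, the carrier that supplies glycine to the first step, was listed at 0 in all 9 libraries, including those with ALAS2.

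The largest falls of this list were those of PGRMC1, a heme-binding partner of ferrochelatase, at -4.97 (log2), TMEM14C, which moves protoporphyrinogen IX into the mitochondrial matrix, at -4.66, HSCB, a co-chaperone of iron-sulfur cluster assembly, at -4.53, and NFS1, the cysteine desulfurase of that pathway, at -2.92. With empty vector, PGRMC1 was at 132, 136 and 101 RPKM, against 2.59, 2.04 and 4.49 RPKM in the libraries labelled hPRM1, and TMEM14C at 71.5, 103 and 82.5 RPKM and 3.15, 1.83 and 2.36 RPKM. PGRMC1, TMEM14C and HSCB were called lower under all 3 scalings, and NFS1 was not with median-of-ratios scaling. COX10, an enzyme of heme A synthesis named after its values were seen, was also at -2.92 on the deposited scale and was called lower under all 3 scalings (-1.06 with median of ratios and -1.40 with quantiles). By group on the deposited scale, 4 of 5 regulators and sensors tested were called lower, and 2 of 7 carriers higher and 3 lower. Also called lower were 2 of 4 breakdown genes, 3 of 3 genes of heme use and 3 of 5 genes of cluster assembly. On that scale 12.9% of all genes tested were called higher and 62.5% lower. With median-of-ratios scaling, EIF2AK1 (1.18), HMOX2 (1.05) and GLRX5 (1.20) turned from called lower to called higher; they are named after their values were seen.

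In hPRM2 against the empty vector, 23 of these genes were tested and 0 were called by limma on any of the 3 scales, with 4 at an unadjusted p under 0.05 on the deposited scale. Against hPRM2, 4 of 23 tested were called higher in the libraries labelled hPRM1 and 8 lower on the deposited scale. The shares of all 11756 genes tested were 16.0% and 37.0% on that scale. With median-of-ratios scaling 9 were called higher and 3 lower, beside 3616 and 2173 of the 11756 genes. With quantile normalization 8 were called higher and 3 lower, beside 2897 and 3104. The 4 that rose were SLC25A37 (6.98), FAM210B (3.61), SLC48A1, a heme transporter (2.81), and HMOX1, the inducible heme oxygenase (1.95). SLC48A1 and HMOX1 were below 1 RPKM in all hPRM2 libraries and passed the filter only through the libraries labelled hPRM1, so they had to differ. The largest falls were those of PGRMC1 (-4.32), HSCB (-4.27), TMEM14C (-4.21) and BLVRA, which reduces biliverdin (-2.13), the last of which was not called after rescaling.

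The genes whose levels were most like those of the isozymes were sought over all 9 libraries as the smallest root mean square difference of log2(RPKM + 1), among 14725 genes. For ALAS2 these were RNU6-268P, a U6 small nuclear RNA pseudogene (0.11), AHSP (0.35) and PI3, the elastase inhibitor elafin (0.44). AHSP was at 208, 135 and 228 RPKM and PI3 at 136, 92.2 and 138 RPKM in the libraries labelled hPRM1, and all 3 genes were at 0 in the other 6. For ALAS1 the nearest were CREG1 (0.31), TRAF3IP1 (0.37) and FXR2 (0.39). The 9 points share libraries and depth, and the likeness is a description.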

How the data were processed

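RNA-seq of mRNA 3′ ends was made from 9 libraries in 3 groups of 3. The authors processed the reads in nf-core/rnaseq (STAR and Salmon after FastQC and cutadapt; versions not given in the sources used here; hg38 per the submitters' processing notes), removed mitochondrial genes, divided by total reads and gene length, and deposited RPKM values without counts; 0 columns of values were left unused. Whole reads could not be recovered for every enzyme. Among values under 100 reads they came out in 5 of 5 for CPOX, 5 of 6 for ALAS1, 1 of 2 for FECH and 0 of 6 for ALAD. No count test was therefore run, and reads were estimated from genes with 1 transcript in GENCODE 29.

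Genes with at least 1 RPKM in 3 of 6 libraries were tested with limma 3.58.1 (R 4.3.3; lmFit, then eBayes with trend and robust) on log2(RPKM + 1), with Benjamini-Hochberg adjustment over all genes tested, each comparison on its own 6 libraries without a replicate block. The script was tested on simulated data in which 200 genes were changed by 4 (log2). It recovered 92.5% of them for the libraries labelled hPRM1 against the empty vector. For hPRM2 against the empty vector it recovered 77.0%, and for the libraries labelled hPRM1 against hPRM2 75.5%. Of the unchanged genes it called 0.23, 0.23 and 0.50%. Ratios were compared with a two-sided exact permutation test. As alternatives, the pseudocount was 0.1 or 5, the filter absent or 10 RPKM, and the scaling by median of ratios or quantiles. The fit was also made on all 9 libraries, with the replicate block, without each library in turn or without a fold threshold. A Welch t-test gene by gene on log2(RPKM + 1) was the last alternative (per-gene test). Members, lists and tests were chosen with earlier results of these data known. Named are the 8 enzymes, the 4 largest called rises and falls among 28 other heme genes, the 3 genes most like each isozyme, and PRM1, PRM2 and marker genes. A marker gene of the HEK293T list is not reported here and was left out of its sums. Python 3.11.15 with pandas 2.3.3, numpy 2.4.6, SciPy 1.17.1 and matplotlib 3.10.9 did the rest.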

Additional observations from a re-analysis of the deposited data

How the results depend on the processing

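In the libraries labelled hPRM1 against the empty vector, the enzymes called higher went from 1 to 2 with median-of-ratios scaling and to 2 with quantile normalization, and those called lower went from 5 to 0 and 0 under these scalings and to 3 with a filter of 10 RPKM, which tests fewer genes. They went to 4 with a pseudocount of 5 (ALAD at -0.60) and to 4 in the fit of all 9 libraries (ALAD at limma adjusted p = 0.0733). ALAD reversed to 0.83 and 0.38 and PPOX to 1.16 and 0.45 under the 2 scalings. In hPRM2 against the empty vector, 1 enzyme was called lower, in place of 0, when all 9 libraries were fitted together. ALAD reversed to 0.082 with quantile normalization, and PPOX to -0.46 without replicate 1 of the empty vector and to -0.40 without replicate 1 of hPRM2, in a range of -0.46 to 1.39 over the libraries left out. In the libraries labelled hPRM1 against hPRM2, 1 enzyme in place of 2 was called higher with a filter of 10 RPKM and with the per-gene test, and 1 in place of 2 was called lower with median-of-ratios scaling, quantile normalization and the per-gene test. There, ALAS1 reversed to 0.92 with median-of-ratios scaling, ALAD to 1.07 with that scaling, 0.16 with quantile normalization and 0.0059 without replicate 1 of hPRM2 (range -0.85 to 0.0059 over the libraries left out), and PPOX to 0.26 with median-of-ratios scaling. Where not stated, the cause was not tested.

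Leaving out 1 library at a time gave 1 to 1 enzymes called higher and 5 to 5 called lower in the first comparison (without replicate 1 of the empty vector ALAD, at -0.93, was replaced by PPOX, at -2.07), 0 and 0 in the second, and 1 to 2 higher (1 without replicate 3 of the libraries labelled hPRM1) and 2 to 3 lower in the third. The log2 ratio of the isozymes then differed by 9.21 to 10.01, 0.96 to 2.16 and 7.46 to 8.66. For the libraries labelled hPRM1 these ranges are no sign of stability, because ALAS2 is at 0 in the other groups. With pseudocounts of 0.1 and 5 it differed by 13.22 and 6.65 in the first comparison, 1.84 and 1.14 in the second and 11.38 and 5.51 in the third. Over all alternatives, 100 fold changes of single enzymes kept their direction and side of the thresholds in the libraries labelled hPRM1 against the empty vector. There, 4 reversed, 11 others lost a call and 3 gained one. In hPRM2 against the empty vector 98 were kept, all of them uncalled, 3 reversed and 1 gained a call. In the libraries labelled hPRM1 against hPRM2, 90 were kept, 5 reversed, 5 lost a call and 2 gained one. Those kept include ALAS2, for which this is no sign of stability, because it is at 0 in the other groups.

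Libraries with the same replicate number did not deviate together (correlations of -0.08 to 0.08 over 14901 genes), so the numbers do not pair the samples. With the replicate block, 1 enzyme was called higher and 5 lower in the first comparison, 0 and 0 in the second, and 2 and 2 in the third, as without it. The paired exact test of the isozyme ratio gave differences of 9.62, 1.63 and 7.995 with p = 0.25, the smallest that 3 pairs allow. For the libraries labelled hPRM1 this p too adds no support, because ALAS2 is at 0 in the other groups.

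Depth limits the low enzymes most: in hPRM2, 3 reads of ALAS1, at the length of its longest transcript, correspond to 0.519 to 1.08 RPKM, against 0.128 to 0.174 in the empty vector.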
